A study of Callithrix jacchus with 6 samples.

Results

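Border-associated macrophages are the macrophages of the brain's outer and inner surfaces, as opposed to the microglia of the tissue itself. They were sought here in hippocampal cell suspensions of aged common marmosets (Callithrix jacchus), as cell barcodes with at least 2 of the genes MRC1, F13A1, LYVE1 and MS4A4A detected. The 4 genes together also had to reach at least 3 UMIs (unique molecular identifiers, the counted RNA molecules) and at least 8 UMIs per 10000. This rule found 56 of 46582 barcodes. The members were thus picked by their own readout, so the levels of these 4 genes describe the choice and are no result.

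The study compared 3 sevoflurane libraries with 3 control libraries, whose titles give sevoflurane or oxygen with a time of 6 h. Sevoflurane is an inhaled anaesthetic. The labels do not say whether the 6 h are the exposure or a time point, and give neither a dose nor an exact age. The cells were freed with collagenase, frozen, thawed and counted with 10x Genomics 3' chemistry. Whether each library is its own animal is not stated, so a p-value here measures only the spread between these libraries, which may be technical.

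Border-associated macrophages sit around blood vessels, in the meninges and in the choroid plexus. They are known for taking up debris, proteins and lipids through scavenger and mannose receptors, for handling iron, and for clearing material that drains along vessel walls. Microglia share much of their macrophage programme but are set apart by genes such as SALL1, P2RY12 and TREM2. FKBP5, the gene this study is about, encodes a co-chaperone that restrains the glucocorticoid receptor and is itself induced by glucocorticoids.

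The rarity of the class sets what can be said of it. The sevoflurane libraries held 13, 9 and 10 members, and the control libraries 8, 4 and 12. Their summed UMIs came to 39122, 23212 and 24767 in the sevoflurane libraries, against 19937, 30688 and 26743 in the control libraries. A member had a median of 2023 UMIs, with a lowest of 966 and a highest of 23011. A set of 4 cells stood apart in depth, at 12755 and 6675 UMIs in sevoflurane replicates 1 and 3 and at 8157 and 23011 UMIs in control replicates 1 and 2. The cell of 23011 UMIs carried 75.0% of all member UMIs of control replicate 2. Of these 4 deep cells, 3 also held endothelial markers and 1 held neuron, oligodendrocyte and oligodendrocyte precursor markers. Some results are therefore also given without these cells. The whole libraries held between 7103 and 8577 barcodes and between 41164947 and 47886816 UMIs. Any 2 libraries shared between 13 and 27 cell barcodes, none of them a member's.

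Of the 56 members, 14 had 2 of the 4 rule genes, 22 had 3 and 20 had all 4. F13A1, the A subunit of clotting factor XIII, was detected in 52 members, and MRC1, the mannose receptor, in 49. MS4A4A, a tetraspan membrane protein of macrophages, was detected in 40 and LYVE1, a hyaluronan receptor, in 33. The 4 genes summed to a median of 44.1 UMIs per 10000, with a highest value of 159.9. The lowest member stood at 10.5 UMIs per 10000, and the densest barcode left out for density alone stood at 7.96. A further 5 barcodes were left out for having 2 UMIs in place of 3, and 5 for having a single rule gene.

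**Figure D1:**
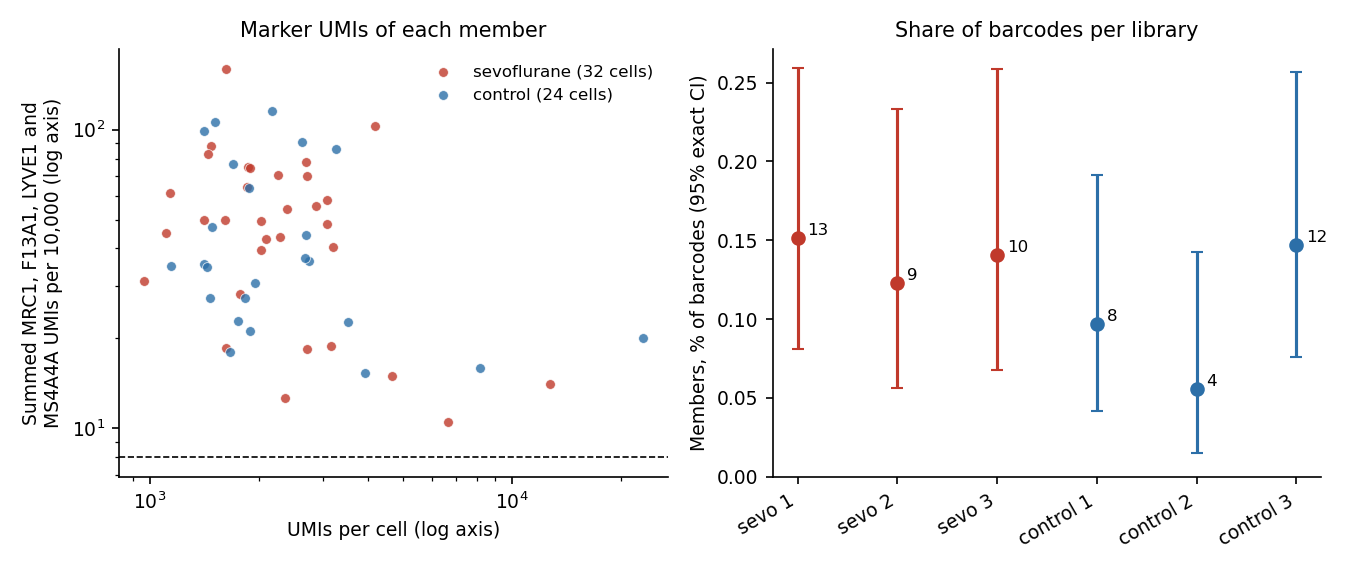
Left, each member by its UMIs (x, log axis) and its summed UMIs of the 4 rule genes per 10000 (y, log axis), with the limit of 8 as a dashed line. Right, members as a percentage of the barcodes of each library with exact 95% binomial intervals and the number of members beside each point; the 6 intervals overlap.

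Members made up 0.152%, 0.123% and 0.141% of the barcodes of the sevoflurane libraries, against 0.0971%, 0.0558% and 0.147% of the control libraries. The means were 0.138% ± 0.0145 in sevoflurane libraries and 0.0999% ± 0.0456 in control libraries (SD, n = 3 each). The groups overlapped, and the exact two-sided permutation test over libraries gave p = 0.3, where 0.1 is the smallest p that 3 against 3 libraries allow. As a share of members and microglia comparator cells together, members made up 2.93%, 3.75% and 5.53% in the sevoflurane libraries, against 3.35%, 1.31% and 3.52% in the control libraries (exact permutation p = 0.4). No difference in abundance was detectable with these numbers of cells. Across single libraries, the exact Clopper-Pearson intervals of the barcode share ran from 0.0152% to 0.259%; such intervals cover counting error only.

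The label was checked on other genes known from border-associated macrophages. Members were set against 1695 microglia comparator cells of the same libraries. These were non-member barcodes with at least 3 of INPP5D, TBXAS1, CSF1R, SYK, APBB1IP, DOCK8 and ADAM28 detected, at least 4 UMIs of these genes and at least 15 UMIs per 10000. Counts were summed over cells and scaled to CPM, the usual scaling of counts to a common total. A gene was called past the fold where the pooled CPM differed at least 4-fold in both the sevoflurane and the control libraries and at least 25% of the cells of the higher class had a UMI of it. Since the members were chosen by expression, these contrasts are descriptive and carry no test. Of 26 further border-macrophage genes in the annotation, 8 were past the fold higher in members (SIGLEC1, MS4A7, COLEC12, CD36, SELENOP, DAB2, VSIG4 and SLC40A1) and 1 was past it lower (IGF1). Over all genes with enough cells, 4.96% were past the fold higher (101 of 2037) and 4.52% lower (68 of 1506). Without the 4 deep cells, 86 of these 101 and 53 of these 68 stayed past the fold, so some of the calls rest on the deep cells. The median log2 ratio of members to comparator cells was 4.33 over the 16 listed genes found in at least 10% of either class, against 0.16 over the 5541 such genes in all. A member had a UMI of 2 to 15 of the 26 genes (median 7), and a comparator cell of 0 to 8 (median 2).

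COLEC12, a scavenger receptor that binds microbial sugars and modified lipoproteins, had 1074, 2800 and 2867 CPM in members of the sevoflurane libraries, and 1404, 2183 and 2244 CPM in members of the control libraries. Its comparator cells had 134, 75.9 and 113 CPM in the sevoflurane libraries and 81.7, 84.6 and 76.2 CPM in the control libraries. Every library's members lay above every library's comparator cells. MS4A7, a relative of the rule gene MS4A4A, had 920, 1034 and 1817 CPM in members of the sevoflurane libraries and 702, 489 and 636 CPM in members of the control libraries, with at most 7.12 CPM in the comparator cells of any library. The MS4A genes form a family of related sequences, and reads of near copies cannot be told apart here. A UMI of MS4A7 was found in 80.4% of members and 0.354% of comparator cells. Only 0.00826% of neurons, which serve as a gauge of free RNA, had one in cells thinned to 1000 UMIs.

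Of the 16 scavenger and uptake genes, 3 were past the fold higher (COLEC12, DAB2 and CD36) and 1 lower (LRP1). SIGLEC1, the sialic acid receptor CD169, was found in 71.4% of members and 15.8% of comparator cells. DAB2, an adaptor of clathrin-mediated uptake, was found in 58.9% against 3.60%, and VSIG4, a complement receptor, in 32.1% against 1.00%. CD36, a receptor for fatty acids and oxidised lipoproteins, was found in 28.6% of members and 0.826% of comparator cells, but had no UMI in the members of sevoflurane replicate 3. STAB1, the scavenger receptor stabilin-1, stayed short of the fold at a log2 ratio of 1.08, with a UMI in 76.8% of members and 49.6% of comparator cells. CLEC10A, a galactose-binding lectin, had between 37.4 and 100.3 CPM in the members of the 6 libraries and at most 1.91 CPM in comparator cells. It was seen in 17.9% of members, too few to be called. LRP1, a lipoprotein receptor, ran the other way and was past the fold lower, found in 10.7% of members against 47.0% of comparator cells.

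Of the 11 iron and haem genes found, 1 was past the fold higher, SLC40A1. SLC40A1, the iron exporter ferroportin, had 153, 302 and 162 CPM in members of the sevoflurane libraries and 150.5, 195.5 and 224 CPM in members of the control libraries, with at most 10.7 CPM in comparator cells. SELENOP, the secreted selenium carrier, had 434.5, 689 and 404 CPM in members of the sevoflurane libraries and 803, 1271 and 636 CPM in members of the control libraries, with 15.9 to 49.8 CPM in comparator cells. Of the 27 listed border-macrophage genes, 1 was not found in the annotation, and CD163L1, PF4 and HMOX1 had no UMI in any member. The floor of 3 counts over all member UMIs corresponds to 18.2 CPM.

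**Figure D2:**
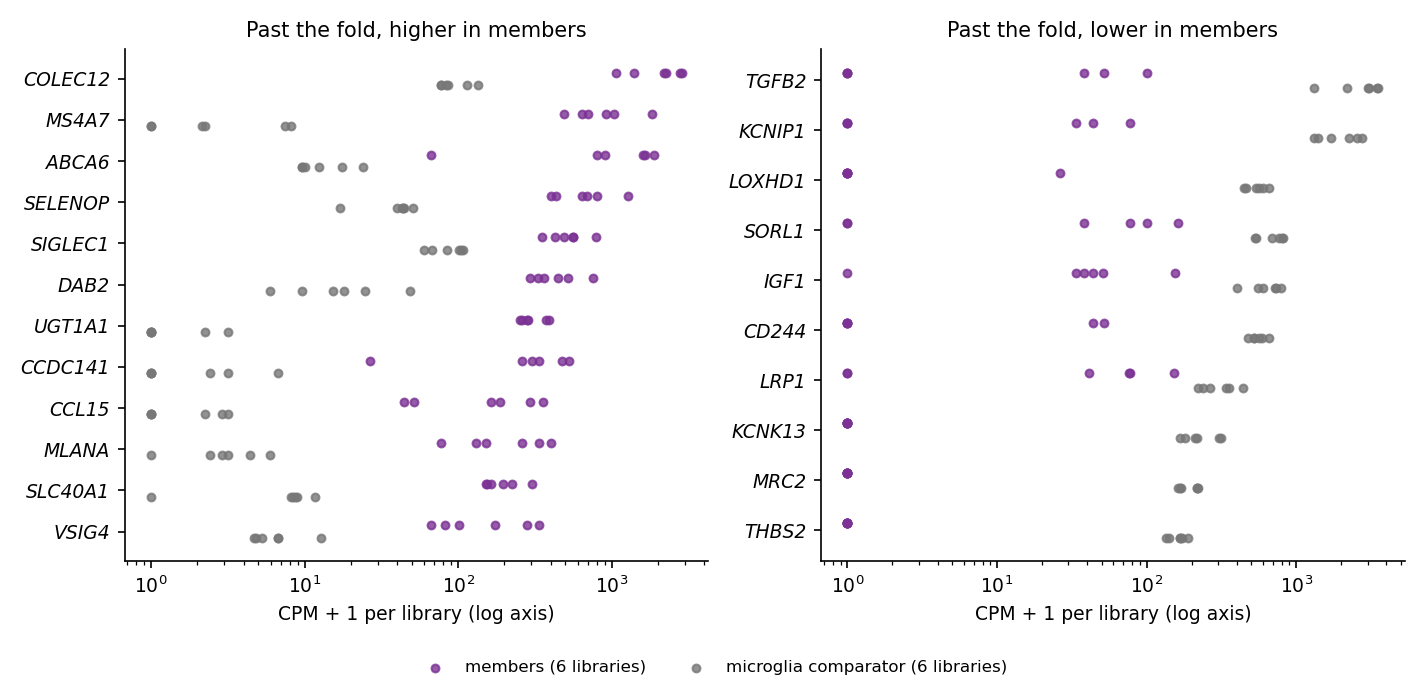
CPM + 1 of selected genes past the fold (x, log axis), with 1 point per library for members and 1 for microglia comparator cells; points at 1 are libraries with no UMI. Within each gene, all member points lie above the comparator points in the left panel and below them in the right panel.

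Of the genes past the fold, which includes the limit of 25% of members, the 10 with the largest ratios outside the rule genes were named, and all but MS4A7 were on none of the gene lists used here. Listed genes seen in fewer members, such as CD163 with a log2 ratio of 7.03 and CLEC10A with 6.85, are not among them. UGT1A1, a glucuronosyltransferase best known for conjugating bilirubin, had 281, 259 and 283 CPM in members of the sevoflurane libraries and 251, 391 and 374 CPM in members of the control libraries, with at most 2.15 CPM in comparator cells. UGT1A1 belongs to a gene complex whose members share exons at their 3' end, so the UMIs may belong to any of them. CCL14 and CCL15, 2 neighbouring chemokine genes of similar sequence, were each found in 32.1% of members, and 28 of 56 members had at least 1 of the 2. ABCA6, a transporter of the ABC family, was found in 71.4% of members and 2.18% of comparator cells. MLANA, an antigen of melanosomes, was found in 37.5% against 0.590%. CCDC141 was found in 48.2% against 0.295%, GASK1B in 39.3% against 0.708%, TMEM236 in 28.6% against 0.295% and TMEM37 in 26.8% against 0.236%.

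Among genes past the fold with a symbol, the 10 with the lowest ratios of members to comparator cells are given here. They were picked by that ratio, so their low levels in members describe the choice. TGFB2, the growth factor TGF-beta 2, had 51.1, 0 and 0 CPM in members of the sevoflurane libraries and 100.3, 0 and 37.4 CPM in members of the control libraries. Its comparator cells had 2201, 3534 and 1306 CPM in the sevoflurane libraries and 3009, 3477 and 3053 CPM in the control libraries. TGFB2 was found in 5.36% of members and 81.8% of comparator cells. KCNIP1, a partner of potassium channels, was found in 7.14% against 83.1%, and LOXHD1 in 1.79% against 59.4%. CD244, an immune receptor of the SLAM family, was found in 3.57% of members against 64.6% of comparator cells. KCNK13, the potassium channel THIK-1 of microglia, had no UMI in any member, and its level in comparator cells was at least 12.4-fold higher than the floor of 3 counts over the members. The same bound was 10.6-fold for MRC2, a collagen receptor related to MRC1, and 8.60-fold for THBS2, a thrombospondin. RASGEF1C, PLCB2 and FBXO31 completed the 10 genes with the lowest ratios among those past the fold, each found in 3.57% of members. Genes seen in fewer than 25% of comparator cells, such as CSF3R with a log2 ratio of -5.06, could not be among these 10.

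Of the 16 homeostatic microglia genes in the annotation, 8 had no UMI in any member (P2RY12, CX3CR1, SALL1, SALL3, CSF3R, CRYBB1, BHLHE41 and TREM2). TREM2, a lipid-sensing receptor of microglia, was found in 13.4% of comparator cells and CSF3R, the receptor of G-CSF, in 17.1%. P2RY12 and CX3CR1 were near 0 in both classes, with a UMI in 1.30% and 1.36% of comparator cells, so they do not tell the classes apart here. The same holds for SALL3 and CRYBB1, whose comparator level did not exceed the floor of 3 counts over the members. Over that floor, comparator cells were 5.54-fold higher for CSF3R and 3.70-fold for TREM2. For SALL1 and BHLHE41 it was only 2.06-fold and 1.62-fold, so their zeros say little. SORL1, a sorting receptor, was found in 17.9% of members and 73.0% of comparator cells. IGF1, a growth factor that was listed among border-macrophage genes, was found in 12.5% against 63.4%. The 7 genes that define the comparator all had ratios below 0, which that choice of cells favours. INPP5D, a lipid phosphatase of immune cells, was the one past the fold, found in 58.9% of members against 94.9% of comparator cells. Even so, 22 members met both rules while 4 members had none of the 7. Those meeting both rules were 16 of 32 sevoflurane members and 6 of 24 control members. Whether this split has a part in the sevoflurane contrasts was not tested.

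None of the 19 listed pan-macrophage genes was past the fold, but they did not move as one. Of the 15 found in at least 10% of either class, 9 had log2 ratios above 0 and 6 below, with a median of 0.12. On the higher side, C1QC, a chain of complement C1q, had a log2 ratio of 3.23, C1QB one of 2.94, ITGAM, the integrin CD11b, one of 1.76 and CYBB, a subunit of the phagocyte oxidase, one of 1.74. C1QB, C1QC and CYBB were each found in fewer than 25% of members. On the lower side, LAPTM5, a lysosomal membrane protein of blood cells, had a log2 ratio of -2.31 and ARHGAP15, a regulator of Rac, one of -1.90. Other genes of the list were nearer to equal. RUNX1, a transcription factor of blood cells, was found in 69.6% of members and 76.6% of comparator cells. PTPRC, the leukocyte antigen CD45, was found in 48.2% against 61.2%, and SPI1, the transcription factor PU.1, in 21.4% against 13.6%. CD68 had no UMI in any member. None of the 20 transcription factors, 8 MHC class II genes or 21 inflammatory genes found was past the fold either.

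Members also lay apart with the rule genes left out. Principal components were computed on 1000 variable genes with the 4 rule genes and the 7 comparator genes left out. All 56 members lay above the 95th percentile of the comparator cells on the first component. Of the 10 nearest neighbours of a member, 82.9% on average were members, although members were 3.20% of the cells; for comparator cells the share was 0.124%. Neighbours of members came from the same library in 18.2% of cases. A single member had no member among its neighbours.

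**Figure D3:**
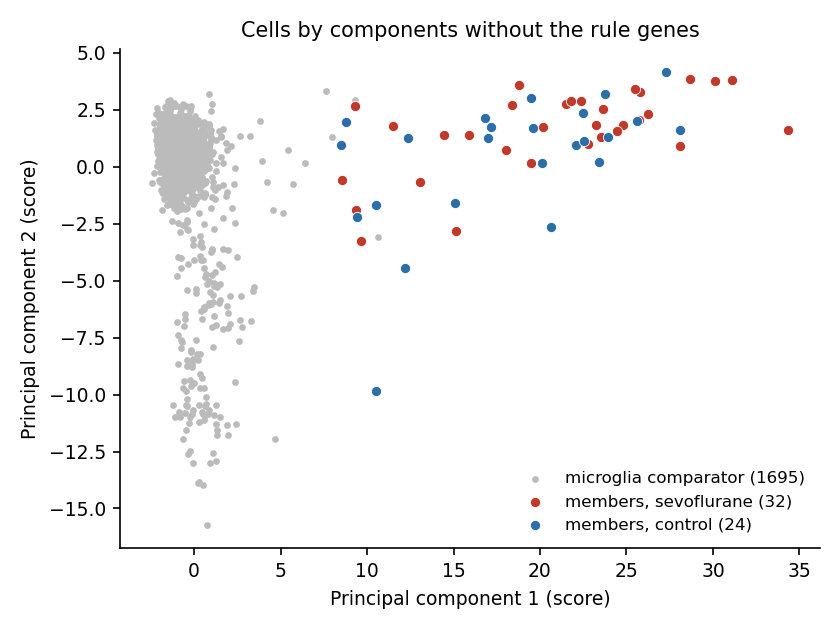
Members (32 of the sevoflurane and 24 of the control libraries) and 1695 microglia comparator cells on the first 2 principal components (scores, no unit), computed without the 4 rule genes and the 7 comparator genes. Members of both groups lie to the right of nearly all comparator cells.

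Markers of other cell types were looked for in both classes. At least 2 markers of another type, with at least 3 UMIs and 8 UMIs per 10000, were held by 62.5% of members and 61.1% of comparator cells. Neuron markers were the most frequent, in 42.9% of members and 43.1% of comparator cells. Endothelial markers were held by 3 members (5.36%) and by 5.72% of comparator cells. Mural cell markers were held by 2 members (3.57%) and 0.059% of comparator cells, and fibroblast markers by 2 members (3.57%) and 0.177%. FLT1, a VEGF receptor of endothelium, had 92 of its 93 member UMIs in the deep cells. In comparator cells FLT1 was found in 67.3%. LAMA2, a laminin chain of vessel walls singled out after its values were seen, was past the fold higher and had a UMI in 32 of the 52 members that were not deep. No member met the marker rule for monocytes or T cells, although 9 had a UMI of the monocyte list and 7 of the T cell list; S100A8, S100A12, FCN1, CD3E, CD3D and CD3G had no UMI. Whether vessel or neuron RNA has a part in the differences between classes was not tested.

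Members varied among themselves. A UMI of the MHC class II genes was found in 2 of 33 members with LYVE1 (6.06%, exact 95% interval 0.743% to 20.2%) and in 7 of 23 members without it (30.4%, 13.2% to 52.9%). This comparison uses a rule gene, and detection depends on depth, so it is given as a description. Complement C1Q genes were detected in 20 of 56 members (35.7%), 15 of 32 in the sevoflurane libraries and 5 of 24 in the control libraries. The exact 95% intervals over pooled cells, 29.1% to 65.3% and 7.13% to 42.15%, overlapped. They leave out the spread between libraries, and detection depends on depth, so these counts are a description. CD163, the haemoglobin-haptoglobin receptor that glucocorticoids are known to induce in macrophages, had 2, 1 and 5 UMIs in the sevoflurane libraries and 0, 0 and 0 UMIs in the control libraries. These 8 UMIs fell in 8 of 32 members of the sevoflurane libraries, 2 of 13, 1 of 9 and 5 of 10 per library. In the control libraries 0 of 24 members had one. The exact 95% interval over the 32 pooled sevoflurane members was 11.5% to 43.4%. Such an interval covers counting error over cells only, and not the spread between libraries. The exact 95% interval of 0 of 24 reaches up to 14.25% of members with a UMI, and sets no limit on members that express CD163. CD163 was too low to enter any filtered test.

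The effect of sevoflurane on gene levels was tested on counts summed per library. FKBP5 had 1022, 1206 and 1575 CPM in members of the sevoflurane libraries, against 451, 261 and 486 CPM in members of the control libraries. All 3 sevoflurane libraries lay above all 3 control libraries, and the means were 1268 ± 281 CPM in sevoflurane libraries and 399 ± 121 CPM in control libraries (SD, n = 3 each; exact permutation p = 0.1, the smallest possible). In edgeR's quasi-likelihood test the log2 fold change was 1.66 ± 0.42 (SE), a fold of 3.16. The unadjusted p was 0.00295, and the Benjamini-Hochberg adjusted p over the 410 genes tested was 0.438, so the difference did not pass the threshold of 0.05. Without the 4 deep cells the edgeR log2 fold change was 1.42 with an adjusted p of 0.517.

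The comparator cells of the same libraries gave the yardstick for FKBP5. They had 1548, 1679 and 1707 CPM in the sevoflurane libraries, against 342, 350 and 317 CPM in the control libraries, a log2 fold change of 2.31 ± 0.17 (SE, edgeR adjusted p = 0.00159). The response of members minus that of comparator cells was -0.61 ± 0.55 on the log2 scale (edgeR, unadjusted p = 0.269, adjusted p = 1). A difference of the responses was thus not detectable, which does not show that the classes responded alike. FKBP5 is the gene in the title of the series, so its direction here is no independent evidence. The call in comparator cells was lost without control replicate 1, 2 or 3 (adjusted p 0.0688, 0.0561 and 0.0630), and with the replicate block (0.0626).

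Cell by cell, 26 of 32 members of the sevoflurane libraries (81.3%) had an FKBP5 UMI, against 14 of 24 of the control libraries (58.3%). The median FKBP5 level was 10.9 UMIs per 10000 in sevoflurane members and 2.72 in control members. The cell richest in FKBP5 held 9 of the 107 UMIs of the sevoflurane members, and 6 of the 30 UMIs of the control members. With each cell thinned once to 1000 UMIs, which left out 1 member, the shares were 41.7%, 55.6% and 60.0% in the sevoflurane libraries against 37.5%, 50.0% and 33.3% in the control libraries. The groups then overlapped (exact permutation p = 0.2). The expected share over all possible thinnings to 1000 UMIs was 68.9%, 53.4% and 72.9% in the sevoflurane libraries and 34.0%, 38.1% and 37.9% in the control libraries, without overlap (exact permutation p = 0.1). Among thinned comparator cells, 75.6% of the sevoflurane group and 29.6% of the control group had an FKBP5 UMI. In thinned neurons, which gauge free RNA, it was 5.21% in the sevoflurane group and 4.31% in the control group.

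**Figure D4:**
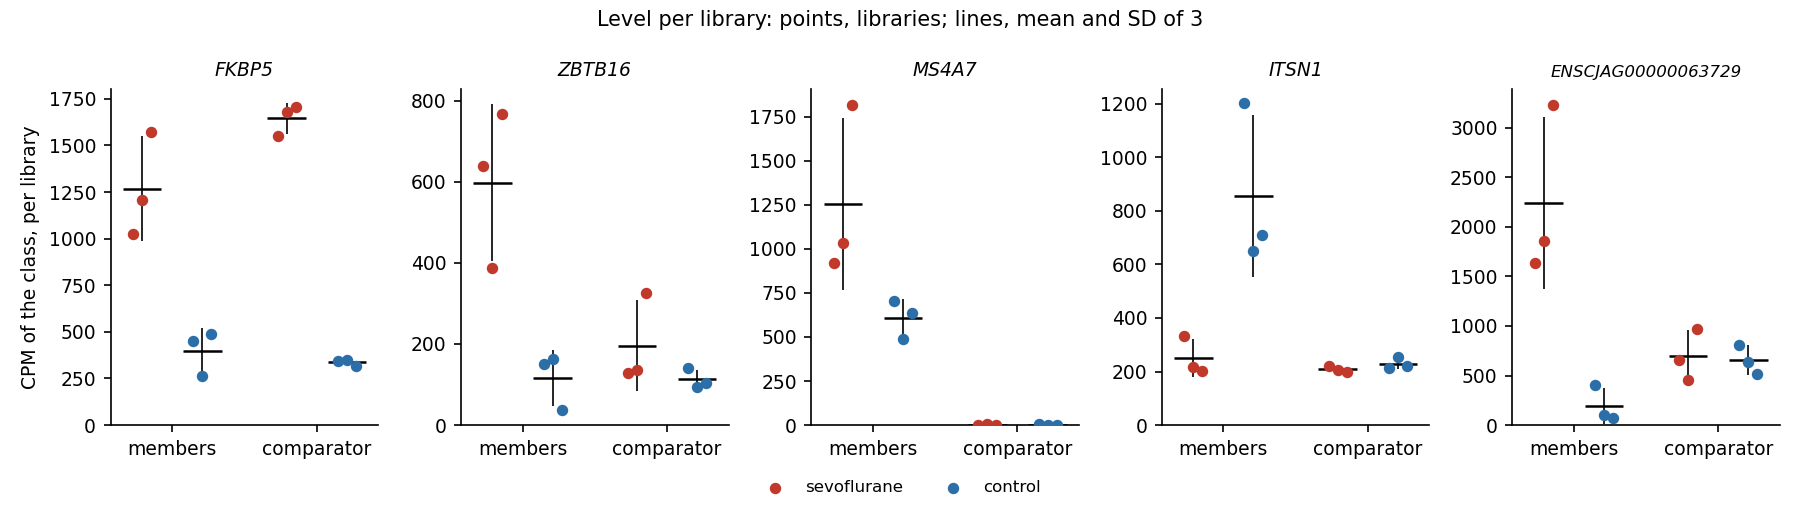
CPM (y, from 0) per library of 5 genes in members and in microglia comparator cells, sevoflurane libraries left of control libraries; points are libraries, bars the mean and SD of 3. FKBP5 lies higher in all sevoflurane libraries in both classes, while ENSCJAG00000063729 lies higher in all sevoflurane libraries in members and overlaps between groups in comparator cells.

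No gene passed the adjusted threshold in members. Of 410 genes tested with edgeR, 0 were called (0%), 21 had an unadjusted p under 0.05 (5.12%), and DESeq2 called 1 and had 12 at an unadjusted p under 0.05. In 24 genes (5.85%) all sevoflurane libraries lay above all control libraries, and in 18 (4.39%) all lay below. The closest to a call was ENSCJAG00000063729, a gene without a symbol in the files or the name table, singled out after its values were seen. It had 1636, 1853 and 3230 CPM in members of the sevoflurane libraries, against 401, 97.8 and 74.8 CPM in members of the control libraries. The groups did not overlap, and 24 of 32 sevoflurane members had a UMI of it, against 4 of 24 control members. All 8 UMIs of control replicate 1 lay in its deep cell. Its log2 fold change was 3.61 ± 0.64 (SE) with an edgeR adjusted p of 0.110. Without the 4 deep cells it was 4.42 and the adjusted p was 0.00523.

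Comparator cells did not show this difference. For the same gene they had 653, 451 and 974 CPM in the sevoflurane libraries and 812, 635.5 and 520 CPM in the control libraries, a log2 fold change of 0.10 ± 0.29 (SE, edgeR adjusted p = 0.992). The response of members minus that of comparator cells was 3.68 ± 0.60 (edgeR adjusted p = 4.33e-06), and it was the single gene of 6118 called for this difference (0.0163%). Without members that hold another type's markers the value was 4.30 and the call was lost (adjusted p = 0.0577); that setting left 1, 2 and 4 members in the control libraries, below the minimum of 3 in 2 of them, so it says little either way. This fit uses 1 estimate of spread for both classes, although members rest on far fewer cells. In comparator cells, 2 of 8225 genes were called (0.0243%), FKBP5 and a gene without a symbol that was lower, ENSCJAG00000066135.

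The next genes by p in members are given as values. NBAS, a factor of vesicle transport and RNA decay, had 1022, 1163 and 2665 CPM in the sevoflurane libraries and 100.3, 424 and 636 CPM in the control libraries (log2 fold change 1.98 ± 0.63 SE, edgeR adjusted p = 0.929). MAP2K5, a kinase of the ERK5 cascade, had a log2 fold change of 1.27, NHSL1, an actin regulator, one of 1.51, and RGS6, a regulator of G-protein signals, one of 1.36. RGS6 was also past the fold higher in members than in comparator cells. Its log2 fold change was 0.74 with every member thinned to 1000 UMIs and 0.66 without members that hold another type's markers. That of NBAS was 1.36 with every member thinned to 1000 UMIs, and lay between 1.39 and 2.48 when a library was left out, lowest without sevoflurane replicate 3. In the other direction, ITSN1, a scaffold of endocytosis, had 332, 215 and 202 CPM in the sevoflurane libraries and 1204, 652 and 710.5 CPM in the control libraries (log2 fold change -1.71 ± 0.44 SE, edgeR adjusted p = 0.438). EXOC6, a subunit of the exocyst, had -1.31, SETD2, a histone methyltransferase, had -1.03, and PRKCA, protein kinase C alpha, had -1.43 (log2 fold change). The deep cell of control replicate 2 held 22 of its 24 EXOC6 UMIs and 13 of its 14 SETD2 UMIs. Without the 4 deep cells, EXOC6 had 152, 474 and 55.3 CPM in the sevoflurane libraries and 679, 260.5 and 486 CPM in the control libraries, and the groups overlapped. SETD2 then had 265.5, 172 and 387 CPM in the sevoflurane libraries and 509, 130.3 and 561 CPM in the control libraries, and its groups overlapped too. Deep cells also held 11 of 24 ITSN1 UMIs in control replicate 1 and 13 of 20 in control replicate 2. Of the 20 PRKCA UMIs of control replicate 2, 12 lay in its deep cell. Without the deep cells, neither ITSN1 nor PRKCA overlapped between groups. NBAS, MAP2K5, ITSN1, EXOC6, SETD2 and PRKCA were detected in 65.6% to 90.8% of neurons per library. The part of neuron RNA in their member counts was not tested.

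Of the 22 listed glucocorticoid-response genes, 2 were abundant enough for the test, FKBP5 and MERTK, and neither passed it. MERTK had a log2 fold change of 0.72 ± 0.53 (SE, edgeR unadjusted p = 0.209), and its groups overlapped. The median of the 2 was 1.19, against -0.00 over all 410 genes. With FKBP5 as 1 of only 2 genes, this median is no result about the list. With the count minimum lowered to 3, 4 were tested, FKBP5 again among them, 3 above 0 and 1 below. Their median was 1.18, against -0.03 over 2263 genes. At an edgeR unadjusted p under 0.05, 2 were higher, FKBP5 and ZBTB16, as were 1.94% of all genes. The adjusted threshold was passed by 0. ZBTB16, a transcription factor induced by glucocorticoids, had 639, 388 and 767 CPM in the sevoflurane libraries and 150.5, 163 and 37.4 CPM in the control libraries. The groups did not overlap, and 22 of 32 sevoflurane members had a UMI of it, against 6 of 24 control members. Its log2 fold change was 2.30 ± 0.60 (SE, edgeR unadjusted p = 0.00181, adjusted p = 0.995). In comparator cells it had 128, 135 and 324.5 CPM in the sevoflurane libraries and 140, 94.7 and 105 CPM in the control libraries. ZBTB16 was also detected in most neurons, in 74.7% to 85.2% of them per library, and the part of neuron RNA in its member counts was not tested.

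The remaining glucocorticoid-response genes were sparse. KLF9, a transcription factor, had 2, 1 and 3 UMIs in members of the sevoflurane libraries and 0, 0 and 0 in members of the control libraries. TSC22D3, which encodes the anti-inflammatory protein GILZ, had 4, 1 and 8 UMIs in the sevoflurane libraries, against 1, 2 and 4 in the control libraries. SGK1, a salt-handling kinase, ran the other way with 2, 0 and 0 UMIs in the sevoflurane libraries and 7, 2 and 3 in the control libraries, where all 7 UMIs of control replicate 1 lay in its deep cell. The glucocorticoid receptor itself, NR3C1, had a log2 fold change of -0.28 ± 0.54 (SE, edgeR unadjusted p = 0.613) at the lower count minimum. Deep cells held 19 of its 24 UMIs in control replicate 2 and 10 of its 22 in sevoflurane replicate 1. These genes were too sparse for the edgeR test of members at its default filter.

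Of the other border-macrophage genes 6 were tested, 3 above 0 and 3 below, with a median log2 fold change of -0.08, and none was called. MS4A7 had the smallest p among them, with a log2 fold change of 1.03 ± 0.42 (SE, edgeR unadjusted p = 0.0365, adjusted p = 0.929). Without the 4 deep cells its groups overlapped. SELENOP had -0.87 ± 0.46 (SE, adjusted p = 0.930). ABCA6 was named for its identity ratio, and its log2 fold change under sevoflurane was 1.59 ± 0.67 (SE, edgeR adjusted p = 0.929). It had 1892, 1594 and 1655 CPM in members of the sevoflurane libraries and 803, 65.2 and 897 CPM in members of the control libraries. The lowest value was that of control replicate 2, where 1 cell carried 75.0% of the member UMIs. Of the rule genes, MRC1 had 0.45 ± 0.47, F13A1 0.14 ± 0.46, LYVE1 -0.20 ± 0.42 and MS4A4A 1.04 ± 0.54 (log2 fold change ± SE). Their sum fixed the membership, so these values are a description.

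Genes of the immediate early, MHC class II, interferon, inflammatory, lipid, monocyte and T cell lists were all below the count minimum for the edgeR test of members, and their response was not tested there. IL6, IL10, CCL4, CCL8, CXCL8 and CXCL10 had no UMI in any member of either group. Of the markers of other cell types, only 1 oligodendrocyte and 1 endothelial gene entered that test, and neither was called. The response of the others was not tested there. Summed endothelial markers had 2684, 43.1 and 1050 CPM in the sevoflurane libraries and 0, 6094 and 74.8 CPM in the control libraries. Without the 4 deep cells they were at most 74.8 CPM in each library.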

How the data were processed

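The 6 hippocampal libraries, 3 per group, were used. The deposited files hold unnormalised UMI counts for each gene in each barcode, made by the authors with Cell Ranger 6.1.1 per the file headers; base calling with CASAVA 1.8 and later steps in Seurat are named per the submitters' processing notes. The genome build is not given in the sources used here. Of 29320 genes, 15188 had a symbol in the files and 1379 took one from a gene name table; the others are counted only, except where said.

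Members and gene lists were chosen with earlier results of these data known. Doublets were scored with scrublet in scanpy 1.11.5 at the median of the 6 automatic thresholds (0.191), which marked 2234 barcodes, 4 of them members; they were kept and left out as an alternative. Counts were summed per library and class, since cells are not replicates, and tested with edgeR 4.0.16 (filterByExpr, TMM, quasi-likelihood F test, R 4.3.3) at a Benjamini-Hochberg adjusted p of 0.05. A standard error is the log2 fold change over the root of F. The difference of responses was fitted over both classes with the library as a block. Identity ratios used pooled counts with 0.5 UMI added. Single values were compared by exact permutation over libraries, shares by exact binomial intervals at 95%. Named genes were FKBP5, the rule and list genes, up to 10 past the fold per direction, and 5 per direction with the smallest p. Some genes that this rule names are not reported here. DESeq2 1.42.0, other filters, stricter rules and libraries left out were alternatives. The edgeR steps were tested on simulated data, with 1 estimate of spread for all genes of a class. In simulated members at the default filter, 8.76% of genes changed 2-fold and 70.2% of those changed 4-fold were called. For the difference of responses these were 0% and 14.4%, so most changes of this size would be missed there.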

Additional observations from a re-analysis of the deposited data

Results flagged for a closer look

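A single result is given here because the responses of 2 cell classes differed in a test of the difference itself. The response of ENSCJAG00000063729 to sevoflurane in border-associated macrophages minus that in microglia comparator cells was 3.68 on the log2 scale (edgeR adjusted p = 4.33e-06). All 3 sevoflurane libraries lay above all 3 control libraries in members. Over the alternatives run, the adjusted p lay between 4.04e-10 and 0.0577. The gene has no symbol in the files or the name table, and the cause of the difference was not tested.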

How the results depend on the processing

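With stricter member rules, members left out or other normalisations, the shares of barcodes and macrophages, the FKBP5 level, its edgeR log2 fold change and the share of members with FKBP5 kept their direction and stayed short of the threshold; permutation p could not go below 0.1. The FKBP5 log2 fold change was 1.25 at its lowest, with every member thinned to 1000 UMIs, and its adjusted p lay between 0.199 and 0.998. Genes past the fold ran from 69 to 119 higher and from 49 to 69 lower, but the genes themselves changed more than these totals. Of the 101 higher and 68 lower genes as reported, 75 and 36 stayed past the fold without members holding another type's markers. With every member thinned to 1000 UMIs, 55 and 42 stayed. The count of genes called in members, 0 in the fit as reported, was 1 with at least 16 marker UMIs per 10000, without members marked by scrublet, without members holding another type's markers, without the 4 deep cells, with all genes kept whatever their counts, and with DESeq2. It was 0 to 1 when a library was left out, and 1 without control replicate 1. That gene was ENSCJAG00000063729 each time; the cause was not tested. Genes called for the difference of responses, 1 as reported, were 2 with at least 16 marker UMIs per 10000 and 0 without members holding another type's markers, a setting that left 1 and 2 members in control replicates 1 and 2, under the minimum of 3, so its counts carry little weight; leaving out a library gave 1 to 1. In comparator cells, 2 as reported, the count was 101 with no filter on low counts, 13 with DESeq2, 0 with the replicate block, and 0 to 9 when a library was left out. FKBP5 in them was not called without any 1 of the 3 control libraries, where the adjusted p ran up to 0.0688. Replicate numbers gave no sign of pairing the libraries: same-numbered members' deviations correlated at -0.28, -0.39 and -0.16. In comparator cells these correlations were -0.017, -0.021 and -0.13. Member sums rest on few cells, so this check cannot show that the libraries are unpaired. With the replicate block, 0 genes were called in members (FKBP5 log2 fold change 1.67, adjusted p 0.662). Neither the share with FKBP5 nor its edgeR fold change could be had without members holding another type's markers. With 56 cells, sparse genes are out of reach.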
